A study of Mus musculus with 8 samples.

Results

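The genes described here are 37 members of the interferon response and of class I antigen presentation, measured by RNA sequencing in lung myofibroblasts of mice at postnatal day 7 on a C57BL/6 background. The rule lists them by symbol and uses no measured level, but the members were chosen with earlier results of these data known. All 37 have a row among the 43432 mouse gene identifiers of the deposited count table. Of the 8 libraries, 4 were labelled Fra-2 transgenic, with constitutive expression of Fra-2, the AP-1 transcription factor encoded by Fosl2, and 4 were labelled wild type and serve as controls. The labels name neither the promoter that drives the transgene nor whether each library came from its own animal, so p-values cover the spread among these libraries alone, and that spread may be technical. The source label of the Fra-2 group also holds the word control, and groups were taken from the sample titles, which the genotype labels match. The question is whether the interferon programme and the class I pathway differ between the groups, and whether Xaf1, a member of the programme, moved with the others.

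Interferons bind receptors at the cell surface and activate JAK kinases, and transcription factors that include STAT2 and IRF9 then switch on a large set of antiviral genes. The same signals raise class I presentation, in which the immunoproteasome cuts proteins into peptides, the TAP transporter carries these into the endoplasmic reticulum, and heavy chains paired with beta-2-microglobulin display them to T cells. Fibroblasts keep a low level of this programme in the absence of infection. Xaf1 encodes a protein that is induced by interferon in many cells and antagonises XIAP, an inhibitor of caspases.

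Total counts were 29926239 to 38954848 in the libraries labelled Fra-2 and 31986025 to 41335957 in the controls. Each group held 2 female and 2 male libraries, judged by the Y-linked gene Ddx3y. Fosl2 measured 132 ± 25.7 CPM in the libraries labelled Fra-2 and 120 ± 14.96 CPM in the controls (SD, n = 4 each; CPM is the count per 1000000 reads of the TMM-scaled library total). It did not pass (log2 fold change 0.14, with an SE of 0.136 and an edgeR adjusted p = 0.888), so each direction given is that of a label. The 8 listed myofibroblast markers were abundant, with summed levels of 12107 to 15205 CPM in the libraries labelled Fra-2 and 12518 to 13521 CPM in the controls. Markers of other cells were present at lower summed levels, which overlapped between groups. The 12 immune markers summed to 127 to 163 CPM in the libraries labelled Fra-2 and 99.9 to 147 CPM in the controls, the 9 endothelial markers to 75.7 to 93.7 and 55.7 to 81.6 CPM, the 10 epithelial markers to 115 to 221 and 56.8 to 136 CPM, and the 4 mesothelial markers to 4.11 to 10.5 and 1.95 to 6.83 CPM, in the same order. The most abundant of each list were Lyz2 (macrophages; 51.7 CPM in the libraries labelled Fra-2 and 42.7 CPM in the controls), Cdh5 (endothelium; 27.7 and 24.5 CPM), Sftpc (alveolar epithelium; 63.5 and 44.6 CPM), Upk3b (mesothelium; 3.04 and 1.70 CPM) and the smooth muscle myosin Myh11 (4385 and 4029 CPM). None of these markers was at 0 in all libraries. The groups did not overlap for the endothelial markers Tek and Plvap and for the epithelial marker Sftpb, each higher in the libraries labelled Fra-2. Over all tested genes the groups did not overlap for 5.76%, with 3.35% wholly higher. None of the markers tested passed (edgeR adjusted p of at least 0.219). An unadjusted p under 0.05 held for 2 immune, 1 endothelial, 1 epithelial, 1 mesothelial and 2 myofibroblast markers. It held for 8.71% of all tested genes. The median log2 fold change of the tested markers was 0.27 for immune, 0.18 for endothelial, 0.27 for epithelial, 0.84 for mesothelial and 0.10 for myofibroblast genes. Their part in the results was not tested, and in such bulk samples fewer cells of a type and less RNA per cell cannot be told apart. One class I gene, H2-Q1, set 3 libraries apart from the other 5: Fra-2 1, control 1 and control 2. Xaf1 and Slfn9 are given with and without them. The class I chains are not, because the level of a gene of that kind chose these libraries. The labels give all 8 libraries the same strain background, and whether all mice carried the same H2 haplotype was not tested.

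Promoter sequence was examined because interferon-stimulated genes commonly carry an interferon-stimulated response element (ISRE), bound by STAT and IRF proteins. RefSeq promoter windows (build GRCm38.p6, 250 bases before to 50 after a start) were found for 31 of the 37 members. The core of that element, GAAA followed by any 2 bases and GAAA again, was searched on both strands. It occurred in 14 of these 31 genes and in 3.99% of all 27025 genes with a window. The 14 were Stat2, Ifih1, Ifit1, Ifit3, Isg15, Oas1a, Rsad2, Bst2, Slfn9, Gbp2, Gbp3, H2-T23, B2m and Psme1. The letters TTCNNNGAA, the core of the interferon-gamma activated site, also on both strands, occurred in Irf1, Ifit2, Oas1a, Bst2 and Psmb8, 5 of 31, and in 9.55% of all genes. In Bst2 a match of each kind overlapped.

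The Xaf1 window held no exact match to either core. It held GAAANGAAA, a pair of GAAA cores spaced by a single base, starting 11 bases into the transcript. That form was searched after the Xaf1 window had been seen, and occurred in 4 of the 31 genes (Xaf1, Stat2, Isg15 and Ifi44) and in 3.70% of all genes; in Stat2 it overlapped the ISRE core. The 5 sequences printed here show 150 bases before to 30 after the start, for the 2 genes that passed, Xaf1 and Slfn9, and for 3 interferon-induced genes that carry the core and either did not pass or were too low to test. Capitals mark the GAAANGAAA match in Xaf1 and the ISRE core, on either strand, in the others.
Xaf1 (chr11:72301479-72301658, plus strand): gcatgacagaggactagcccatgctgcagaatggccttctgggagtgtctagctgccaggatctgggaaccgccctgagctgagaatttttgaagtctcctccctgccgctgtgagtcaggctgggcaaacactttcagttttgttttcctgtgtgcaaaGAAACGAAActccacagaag
Slfn9 (chr11:82991801-82991980, minus strand): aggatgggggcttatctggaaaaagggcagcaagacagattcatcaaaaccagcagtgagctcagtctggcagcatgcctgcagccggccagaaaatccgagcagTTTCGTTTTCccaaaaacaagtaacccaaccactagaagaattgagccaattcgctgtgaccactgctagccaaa
Ifit1 (chr19:34640739-34640918, plus strand): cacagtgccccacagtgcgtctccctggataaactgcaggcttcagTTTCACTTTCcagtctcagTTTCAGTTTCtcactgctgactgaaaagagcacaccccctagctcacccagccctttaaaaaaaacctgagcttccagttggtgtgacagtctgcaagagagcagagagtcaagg
Isg15 (chr4:156200789-156200968, minus strand): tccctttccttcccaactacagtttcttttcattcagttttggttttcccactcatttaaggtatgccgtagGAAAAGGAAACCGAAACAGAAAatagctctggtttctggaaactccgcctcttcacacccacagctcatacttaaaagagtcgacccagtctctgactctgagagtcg
B2m (chr2:122147537-122147716, plus strand): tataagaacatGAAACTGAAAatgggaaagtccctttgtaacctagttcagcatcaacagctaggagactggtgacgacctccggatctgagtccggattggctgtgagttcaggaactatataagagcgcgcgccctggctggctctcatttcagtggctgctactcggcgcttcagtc
Slfn9 carried 1 match, starting 45 bases before its start. Ifit1 carried 2, Isg15 3 matches that overlap in sequence, and B2m 1. A match is a description of letters and does not show that a factor binds there. Only exact letters within the window were searched, so a window without a match may still hold a related element.

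Of the 37 members, 30 had enough reads to be tested, and 1 rose, 1 fell and 28 did not pass in the libraries labelled Fra-2 (edgeR's quasi-likelihood test, Benjamini-Hochberg adjusted p under 0.05 over all 15422 tested genes). Xaf1 rose and Slfn9 fell. Over all tested genes 1.02% were called, 0.72% as higher and 0.298% as lower. The median log2 fold change of the 30 tested members was 0.09, beside -0.01 over all tested genes. Without Xaf1 the other 29 ranged from -1.04 to 0.92. Of the 29, 16 had a positive and 13 a negative value. At an unadjusted p under 0.05 there were 2 members, again Xaf1 and Slfn9, and 8.71% of all tested genes. The CPM values of the groups did not overlap for 3 of the 30 members, against 5.76% of all tested genes. These were Xaf1, the 1 member wholly higher, against 3.35% of all genes, and Slfn9 and Psme2, the 2 wholly lower, against 2.42%.

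**Figure D1:**
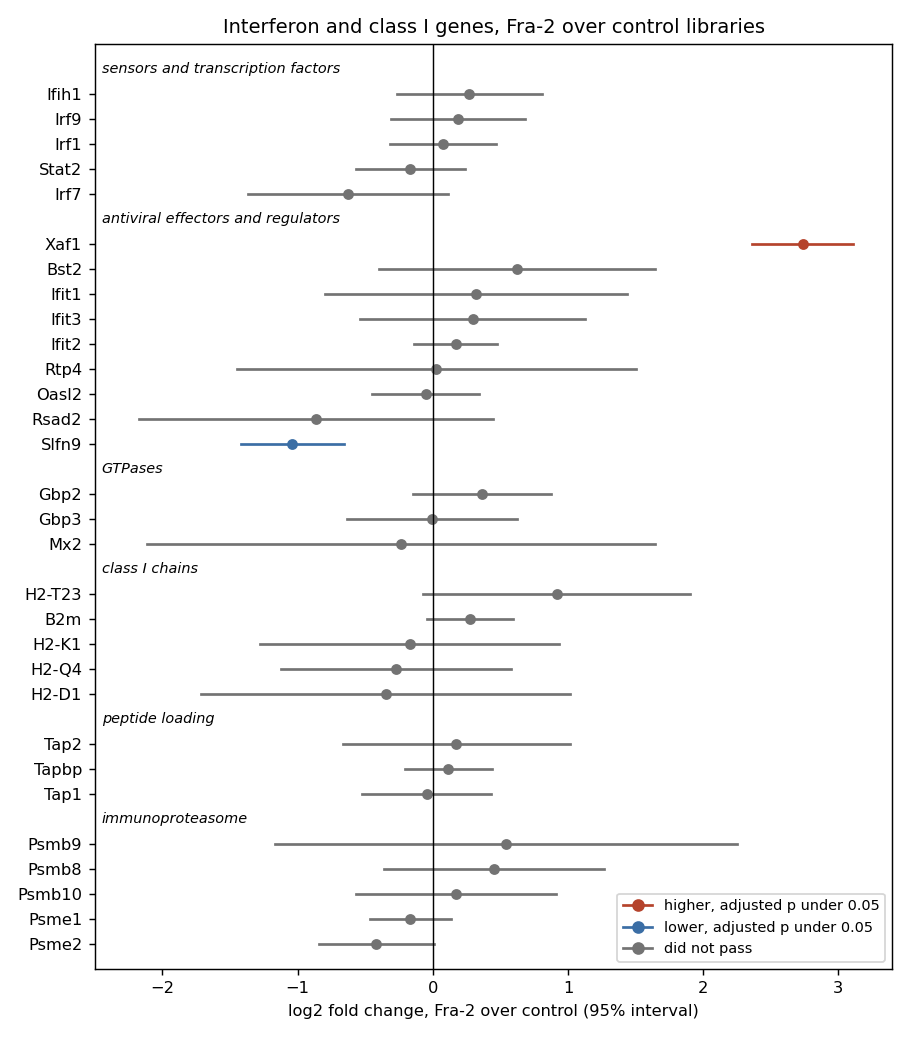
log2 fold change with its 95% interval of the 30 tested members, libraries labelled Fra-2 over control libraries (n = 4 each), grouped by role. Xaf1 lies at 2.74, apart from all others, Slfn9 lies at -1.04, and the other intervals, drawn in grey, belong to the 28 members that did not pass.

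Xaf1 (ENSMUSG00000040483, protein-coding, chromosome 11, 72301629 to 72313733 in GRCm38) measured 22.7, 21.8, 15.6 and 20.2 CPM in Fra-2 1 to 4, against 2.91, 2.68, 2.94 and 3.52 CPM in control 1 to 4. Every library labelled Fra-2 was more than 4 times as high as the highest control, and the controls lay close together. These values rest on 496 to 787 reads in the libraries labelled Fra-2 and 93 to 127 reads in the controls. The fold change was 6.66 (95% interval 5.14 to 8.63, log2 fold change 2.74, SE 0.174, edgeR adjusted p = 2.02e-06). No other annotated gene with a row in the table overlaps Xaf1. The log2 fold change was 2.58 without the 3 libraries high in H2-Q1 (edgeR adjusted p = 0.00277).

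Set against Xaf1, none of the other 29 tested members had an interval that reached it. Xaf1 was singled out with earlier results of these data known, so this contrast is not independent of that choice. The lower bound of Xaf1 was 2.36 on the log2 scale. All 29 upper bounds lay below that, the highest being 2.25 for Psmb9, a gene of under 1 CPM. The intervals of 14 of the 29 lay wholly within a 2-fold change in either direction, so a doubling or a halving lay outside them. For the other 15, Slfn9 and 14 members that did not pass, they did not, and for these 14 a change of 2-fold cannot be told from none. Levels per exon length, in CPM per kb, placed Xaf1 at 4.28 ± 0.670 in the libraries labelled Fra-2, seventh of the 37, and at 0.643 ± 0.0762 in the controls, where it was the 21st (SD, n = 4 each).

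**Figure D2:**
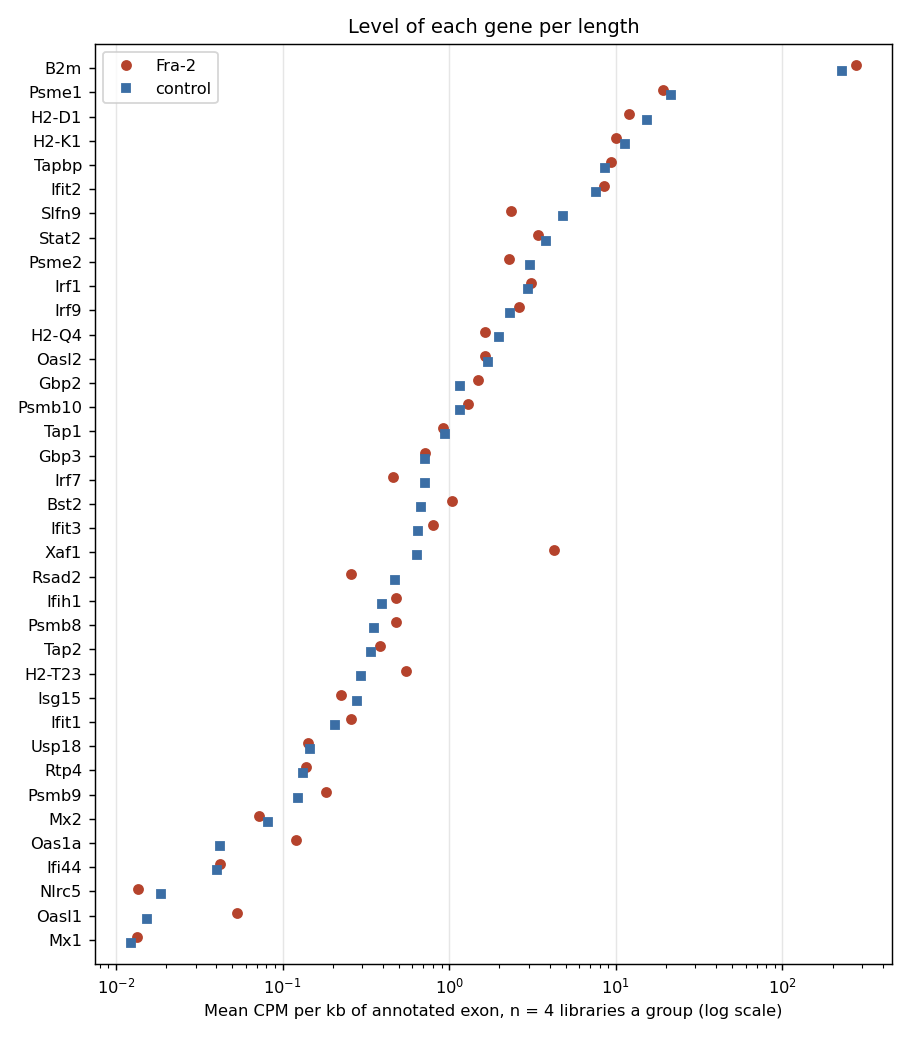
Mean CPM per kb of annotated exon for all 37 members on a log scale, circles for libraries labelled Fra-2 and squares for controls (n = 4 each), ordered by the control level. Xaf1 has the widest gap between its points, 4.28 against 0.643 CPM per kb, and Slfn9 at 2.35 against 4.84 CPM per kb.

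Slfn9, a member of the Schlafen family of interferon-regulated genes (ENSMUSG00000069793, chromosome 11, 82978390 to 82991830 in GRCm38, minus strand), measured 14.4, 9.24, 16.3 and 16.1 CPM in Fra-2 1 to 4, against 31.7, 24.9, 32.4 and 26.5 CPM in control 1 to 4. All 4 libraries labelled Fra-2 lay below all 4 controls, with Fra-2 2 the lowest. The fold change was 0.486 (95% interval 0.373 to 0.634, log2 fold change -1.04, SE 0.178, edgeR adjusted p = 0.0104). Without the 3 libraries high in H2-Q1 the log2 fold change was -1.08 and the call was lost (edgeR adjusted p = 0.251, with 3 libraries against 2); over the other 17 alternatives its adjusted p ran from 6.07e-06 to 0.0497. Schlafen genes lie side by side and resemble each other, so reads may be split between copies. The neighbour Slfn8 measured 0.412 and 0.307 CPM (libraries labelled Fra-2 and controls) and Slfn5 4.89 and 7.38 CPM, and neither passed (edgeR adjusted p = 0.934 and 0.683).

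**Figure D3:**
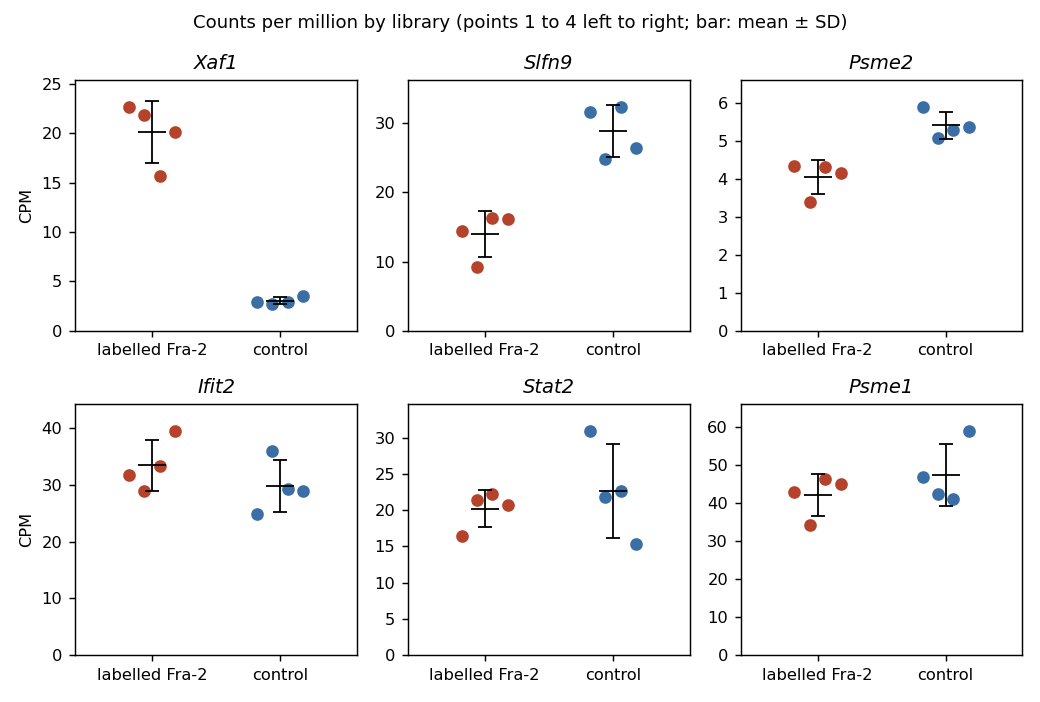
CPM in each library for Xaf1, Slfn9 and Psme2, the members whose groups do not overlap, and for Ifit2, Stat2 and Psme1, each the most abundant of its role. Points are libraries 1 to 4 of each group from left to right and bars show the mean ± SD; the 4 Xaf1 values of the libraries labelled Fra-2 sit between 15.6 and 22.7 CPM, all above the controls at 2.68 to 3.52 CPM.

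Xaf1 and Slfn9 lie on the same chromosome, 10.7 Mb apart. Among the 56 other tested genes within 2 Mb of the start of Xaf1, 0 were called by edgeR and 3 had an unadjusted p under 0.05. Over all tested genes these shares were 1.02% and 8.71%. The 56 had a median log2 fold change of -0.04. The groups did not overlap for 4 of the 56, against 5.76% of all tested genes. Pitpnm3, 254 kb away, had the highest log2 fold change of the 56, 1.51 (SE 0.452). Its groups did not overlap, with the libraries labelled Fra-2 higher, and it did not pass (edgeR adjusted p = 0.192). Fbxo39, whose start is the next beyond Xaf1 among tested genes, stood at 0.85 on that scale (SE 0.745) and did not pass (edgeR adjusted p = 0.864). Of 36 tested genes within 2 Mb of Slfn9, a window added after the data were seen, 1 was called, the phosphatase Dusp14. Dusp14 rose by 0.92 on the log2 scale (SE 0.199, edgeR adjusted p = 0.0439). Of these 36, 4 had an unadjusted p under 0.05 by edgeR, Dusp14 among them, and the groups did not overlap for 3. Between Xaf1 and Slfn9, 5 of 159 tested genes were called, or 3.14%. The share was 1.46% of the 1297 tested on chromosome 11, these included, and 1.02% of all tested genes. The ends of this interval are the 2 members that passed, so it was chosen from the same calls and cannot show local clustering. The 5 were Rap1gap2, Serpinf1, Coro6 and Myo1d, which were higher, and 1700016K19Rik, which was lower, all named after their values were seen.

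**Figure D4:**
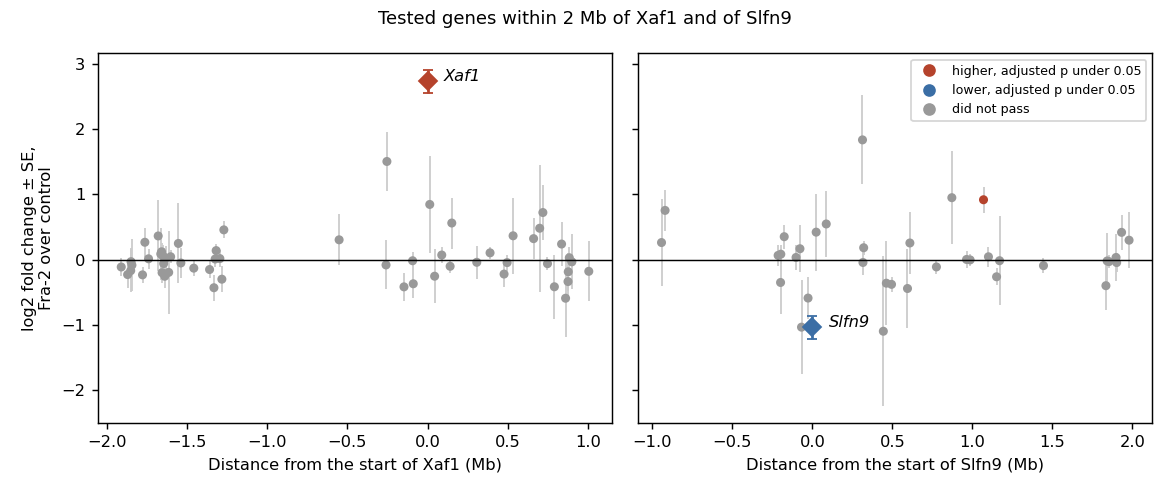
log2 fold change ± SE of tested genes by the distance of their start from that of Xaf1 (left) and Slfn9 (right), libraries labelled Fra-2 over controls (n = 4 each). Grey points did not pass; the Xaf1 diamond stands at 2.74 among 56 neighbours of which 0 passed, and 1 of 36 neighbours of Slfn9 passed.

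None of the signalling and sensor members passed. Stat2, the STAT protein of the type I interferon response and the most abundant of them in CPM, measured 16.4, 21.4, 22.3 and 20.7 CPM in Fra-2 1 to 4, against 30.9, 21.8, 22.6 and 15.3 CPM in control 1 to 4. The groups overlapped, and the controls spanned a wider range than the libraries labelled Fra-2. Its fold change was 0.892 (95% interval 0.674 to 1.18, edgeR adjusted p = 0.911). Of the 37 members, 18 overlap another annotated gene, among them Irf9, the DNA-binding partner of STAT2, which overlaps Rnf31 on the same strand. Irf9 averaged 14.2 ± 4.73 CPM in the libraries labelled Fra-2 and 12.4 ± 2.97 CPM in the controls. Irf1, a factor induced by interferon-gamma, averaged 12.4 ± 2.45 and 11.7 ± 2.04 CPM in the same order. Irf7, which amplifies the type I response, averaged 1.74 ± 0.563 CPM in the libraries labelled Fra-2 and 2.69 ± 0.951 CPM in the controls (log2 fold change -0.63 with an SE of 0.344, edgeR adjusted p = 0.686), and its gene overlaps the much more abundant Phrf1. Ifih1, the sensor of long double-stranded RNA, averaged 3.90 ± 0.522 and 3.24 ± 0.813 CPM. Nlrc5, the activator of class I genes, had 0 to 11 reads in the libraries labelled Fra-2 and 1 to 10 reads in the controls and was not tested.

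Among the 14 antiviral effectors and regulators, Xaf1 and Slfn9 passed, 7 did not and 5 were too low to test. Ifit2, which binds viral RNA, was the most abundant in CPM. It measured 31.8, 29.0, 33.4 and 39.5 CPM in Fra-2 1 to 4, against 24.8, 35.9, 29.3 and 29.0 CPM in control 1 to 4, and the groups overlapped. Its fold change was 1.1235 (edgeR adjusted p = 0.854), and the 95% interval of 0.910 to 1.39 did not reach a doubling. Oasl2, a relative of the 2'-5' oligoadenylate synthetases, averaged 10.5 ± 2.62 CPM in the libraries labelled Fra-2 and 10.9 ± 1.17 CPM in the controls (95% interval of the fold change 0.733 to 1.27). Ifit3 averaged 1.39 ± 0.462 and 1.13 ± 0.179 CPM in the same order, and Bst2, the tether of budding virions, 0.939 ± 0.260 and 0.612 ± 0.217 CPM. Rsad2, which encodes viperin, varied most among the effectors of over 1 CPM, from 0.446 to 1.93 CPM in the libraries labelled Fra-2 and from 0.298 to 3.76 CPM in the controls (log2 fold change -0.86 with an SE of 0.608, edgeR adjusted p = 0.803). Ifit1 and Rtp4 lay under 1 CPM in both group means. Summed with their closest copies, 5 Ifit1 and Ifit3 genes measured 3.01 ± 0.746 CPM in the libraries labelled Fra-2 and 2.19 ± 0.211 CPM in the controls, and the groups overlapped.

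The untested effectors had few reads. Isg15, the ubiquitin-like modifier, had 0 to 14 reads in the libraries labelled Fra-2 and 0 to 13 in the controls. Usp18, which removes Isg15 and damps interferon signalling, had 5 to 33 and 9 to 22 reads in the same order. Oas1a had 2 to 18 and 0 to 9 reads, Ifi44 5 to 14 and 2 to 34 reads, and Oasl1 0 to 16 and 0 to 3 reads. A count of 0 allows up to 3 reads in a library. With no filter on low counts all 37 members were tested, and 1 was called higher and 1 lower, again Xaf1 and Slfn9. The 7 genes of the Oas1 family summed to 0.597 ± 0.320 CPM in the libraries labelled Fra-2 and 0.245 ± 0.0856 CPM in the controls. The log2 fold change of this sum was 1.28 (SE 0.602). The groups overlapped, at 0.288 to 0.977 CPM in the libraries labelled Fra-2 and 0.181 to 0.371 CPM in the controls. No tested effector other than Xaf1 and Slfn9 separated the groups.

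The GTPases were low. Gbp2, a guanylate-binding protein that attacks vacuoles of intracellular pathogens, measured 3.75, 3.60, 3.12 and 4.53 CPM in Fra-2 1 to 4, against 3.37, 2.91, 2.84 and 2.53 CPM in control 1 to 4. The groups overlapped, through Fra-2 3 and control 1 (fold change 1.29, 95% interval 0.905 to 1.83, edgeR adjusted p = 0.774). Gbp3 averaged 2.33 ± 0.413 CPM in the libraries labelled Fra-2 and 2.34 ± 0.622 CPM in the controls. Mx2, annotated as a polymorphic pseudogene, averaged 0.259 and 0.297 CPM. Mx1, whose product blocks influenza virus in mice that carry an intact gene, had 0 to 5 reads in the libraries labelled Fra-2 and 0 to 4 in the controls and was not tested.

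Both classical class I chains differed widely between libraries of the same group. H2-K1, a classical heavy chain (chromosome 17, 33996017 to 34000347 in GRCm38), measured 53.5, 22.9, 20.9 and 20.96 CPM in Fra-2 1 to 4, against 47.6, 49.3, 21.6 and 14.5 CPM in control 1 to 4. H2-D1, the other classical chain (35262730 to 35267499), measured 60.8, 17.6, 19.6 and 26.2 CPM in Fra-2 1 to 4, against 61.8, 57.7, 22.7 and 16.03 CPM in control 1 to 4. For both genes Fra-2 1, control 1 and control 2 stood above the other 5 libraries with no value between 26.2 and 47.6 CPM. H2-Q1, a nonclassical chain beyond H2-D1 (35320405 to 35325099) that is no member, showed the same split more sharply, with 13.4, 0.0318, 0.158 and 0.212 CPM in Fra-2 1 to 4, against 12.3, 12.3, 0.0632 and 0.542 CPM in control 1 to 4. It had 431 to 538 reads in these 3 libraries and 1 to 18 in the other 5. H2-Q10, also no member and too low to test, had 54 reads in Fra-2 1, 54 in control 1 and 33 in control 2, and 0 to 4 in the other 5. The 3 libraries are not of 1 sex, with control 1 male and the other two female. H2-T24, a further nonclassical chain gene that is no member, was lowest in the same 3 libraries, with 3.78, 5.0, 4.66 and 7.66 CPM in Fra-2 1 to 4, against 0.895, 2.77, 8.47 and 7.94 CPM in control 1 to 4.

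The split did not follow the groups, and no class I chain passed. The log2 fold change was -0.17 for H2-K1 (SE 0.479) and -0.35 for H2-D1 (SE 0.581), with edgeR adjusted p = 0.970 and 0.945, and intervals of the fold change of 0.413 to 1.91 and 0.304 to 2.02. Around the group means, the log2 CPM of H2-K1 had an SD of 0.77 and that of H2-D1 one of 0.89, more than 99.7% and 99.9% of the 8034 genes of at least 10 CPM, whose median was 0.18. H2-Q4 averaged 4.28 ± 2.53 CPM in the libraries labelled Fra-2 and 5.16 ± 2.18 CPM in the controls. It too was highest in Fra-2 1, control 1 and control 2, at 7.76, 4.89 and 8.30 CPM. The other libraries ran from 1.86 to 4.36 CPM, so the gap was narrow. H2-T23, the counterpart of human HLA-E, averaged 1.6 ± 0.509 and 0.852 ± 0.475 CPM (log2 fold change 0.92 with an SE of 0.461, edgeR adjusted p = 0.635). These chains are alike in sequence, and how shared reads were counted is not given in the sources used here. Summed over 24 class I heavy chain genes the level was 150, 59.9, 56.7 and 68.6 CPM in Fra-2 1 to 4, against 136, 137, 64.6 and 53.7 CPM in control 1 to 4. H2-K1 and H2-D1 made up 56.9% to 80.5% of this sum in a library, so it largely restates their split.

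**Figure D5:**
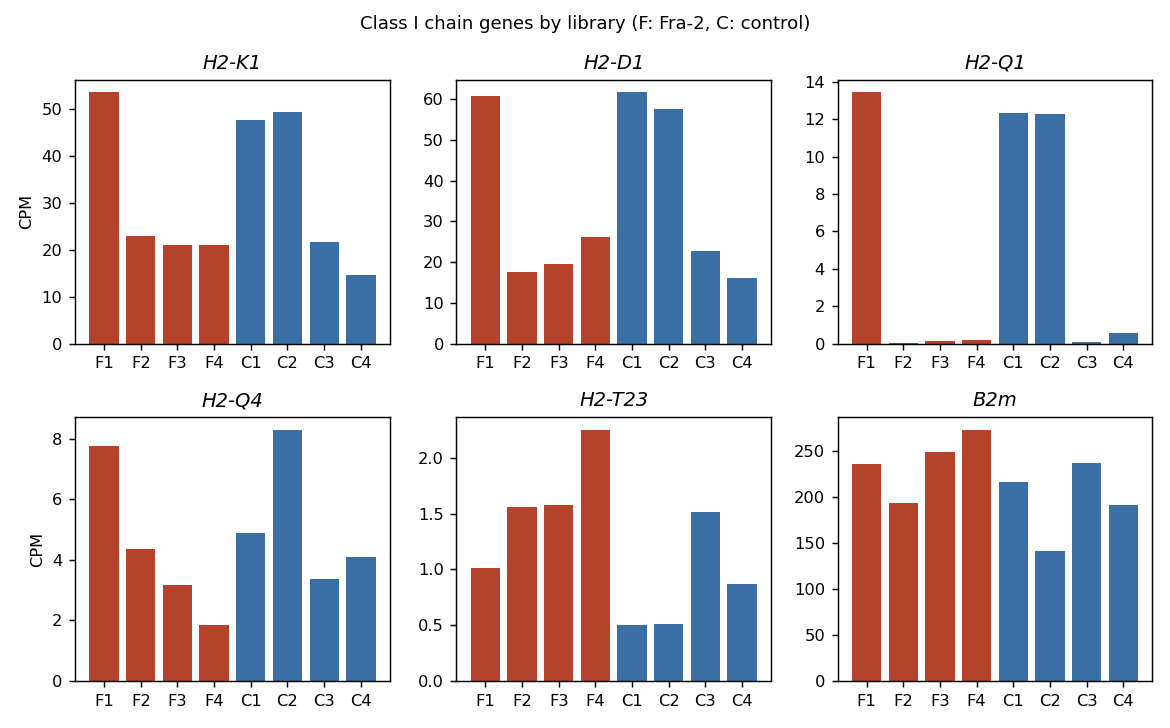
CPM in each library for the class I chain genes, bars F1 to F4 for libraries labelled Fra-2 and C1 to C4 for controls. F1, C1 and C2 are high for H2-K1 and H2-D1 (47.6 to 61.8 CPM) and for H2-Q1 (12.3 to 13.4 CPM). H2-Q4 is also highest in these libraries (4.89 to 8.30 CPM), by a narrow gap, while B2m does not follow this order.

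B2m, the common light chain, lies on chromosome 2 and did not show the split. It measured 236, 193, 249.2 and 274 CPM in Fra-2 1 to 4, against 216, 142, 237 and 192 CPM in control 1 to 4, and was the highest of the 37 members per length, at 277 ± 39.0 and 229 ± 47.9 CPM per kb. The groups overlapped and the gene did not pass (fold change 1.21, 95% interval 0.969 to 1.51, edgeR adjusted p = 0.683). The ratio of H2-K1 to B2m in CPM was 22.6% in Fra-2 1, 21.99% in control 1 and 34.8% in control 2, and 7.58% to 11.8% in the other 5 libraries.

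The peptide loading genes lie in the same region of chromosome 17 as the heavy chains, and none passed. Tapbp, which encodes tapasin, the bridge between heavy chain and transporter, measured 39.4, 39.1, 28.6 and 28.9 CPM in Fra-2 1 to 4, against 34.7, 32.6, 25.2 and 33.0 CPM in control 1 to 4. The groups overlapped (fold change 1.08, 95% interval 0.867 to 1.35, edgeR adjusted p = 0.929). Tapbp overlaps Zbtb22 on the same strand. The transporter subunit gene Tap1 averaged 4.99 ± 0.60 CPM in the libraries labelled Fra-2 and 5.16 ± 1.28 CPM in the controls, and Tap2 1.45 ± 0.134 and 1.28 ± 0.536 CPM. Tap1 lies between H2-K1 and H2-D1, and at 5.56, 4.52 and 3.91 CPM in Fra-2 1, control 1 and control 2 it was within the range of the other 5 libraries or below it (4.17 to 6.86 CPM). Of 145 tested genes within 2 Mb of H2-K1, a window added after the data were seen, 0 were called by edgeR and 5 had an unadjusted p under 0.05. The groups did not overlap for 3 of the 145. Over all tested genes these shares were 1.02%, 8.71% and 5.76%.

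The proteasome members did not pass either. Psme1, a subunit of the PA28 activator of the proteasome, measured 42.9, 34.1, 46.4 and 45.1 CPM in Fra-2 1 to 4, against 46.9, 42.2, 41 and 58.9 CPM in control 1 to 4, and the groups overlapped (fold change 0.892, 95% interval 0.724 to 1.10, edgeR adjusted p = 0.856). Psme2, the other subunit, measured 4.32, 3.38, 4.32 and 4.16 CPM in Fra-2 1 to 4, against 5.90, 5.08, 5.28 and 5.35 CPM in control 1 to 4. All libraries labelled Fra-2 lay below all controls, but the gene did not pass (fold change 0.749, 95% interval 0.558 to 1.01, edgeR adjusted p = 0.592). The catalytic immunoproteasome subunits that replace constitutive ones were low. Psmb8 averaged 1.63 ± 0.302 CPM in the libraries labelled Fra-2 and 1.19 ± 0.443 CPM in the controls, Psmb10 2.22 ± 0.553 and 1.97 ± 0.842 CPM, and Psmb9 0.666 ± 0.720 and 0.452 ± 0.304 CPM in the same order. Psmb9 and Tap1 overlap head to head, so without strand their reads cannot be told apart there.

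Beyond the members, 0 genes of the other interferon and class I lists passed. Over all tested genes 1.02% were called and 8.71% had an unadjusted p under 0.05. These shares apply to each list given from here on. For lists of this size 0 calls is near the first share and does not show that a pathway was unchanged. Interferon transcripts were near or at 0: of 10 ligand genes 7 had 0 reads in all 8 libraries, and the 10 together had 12 reads in the libraries labelled Fra-2, of which 8 were Ifng reads in Fra-2 4, and 3 reads in the controls. Of 15 receptor and JAK-STAT genes 14 were tested, 0 passed by edgeR, 1 had an unadjusted p under 0.05, and the median log2 fold change was 0.07. Jak1, a kinase shared by the interferon receptors, averaged 337 ± 36.4 CPM in the libraries labelled Fra-2 and 305 ± 14.2 CPM in the controls. All 19 nucleic acid sensing genes were tested and 0 passed or had an unadjusted p under 0.05 (median -0.02), with the ubiquitin ligase Trim25 at 80.2 ± 4.15 and 75.4 ± 9.21 CPM. Of 70 other interferon-induced genes 54 were tested, 0 passed, 5 had an unadjusted p under 0.05 and the median was 0.04. Ifitm2, which restricts virus entry, averaged 202 ± 14.99 CPM in the libraries labelled Fra-2 and 197 ± 44.2 CPM in the controls.

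For the 22 other class I and loading genes, 17 were tested and 0 passed or had an unadjusted p under 0.05 (median 0.07), with the loading complex thiol oxidoreductase Pdia3 at 1510 ± 269 CPM in the libraries labelled Fra-2 and 1392 ± 58.6 CPM in the controls. The 17 constitutive proteasome genes were all tested and 0 passed or had an unadjusted p under 0.05. Their median log2 fold change was -0.12, and all 17 values ran from -0.46 to -0.016. All 17 were below 0 with RLE and with total-count scaling too, but these scalings could hardly change a sign. The median of all tested genes was -0.012 with TMM, -0.0087 with RLE and -0.021 with total-count scaling. A shared direction among the 17 was not tested. The most abundant of them in CPM, the activator Psme4, stood at 180 ± 16.02 and 184 ± 16.3 CPM. Among 20 genes of XIAP, other apoptosis inhibitors, caspases and BCL2 relatives 0 passed by edgeR and 2 had an unadjusted p under 0.05 (median -0.04). Mcl1, the most abundant, averaged 675 ± 42.9 and 691 ± 48.1 CPM in the same order. Xiap, the inhibitor that gives Xaf1 its name and was named outside the rule for genes, averaged 143 ± 13.5 CPM in the libraries labelled Fra-2 and 141 ± 6.17 CPM in the controls (95% interval of the fold change 0.880 to 1.17, edgeR adjusted p = 0.984).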

How the data were processed

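RNA was amplified from 50 ng of total RNA after oligo-dT selection (NuGEN Ovation, then Nextera XT), per the labels' protocols, which name no step that marks the strand. The authors deposited raw counts per mouse Ensembl gene. The submitters' processing notes name the build GRCh38, a human build; the aligner, counter and annotation were not stated in the sources at hand. Gene identifiers were looked up in GENCODE M21 (GRCm38), whose coordinates and exon lengths are used.

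Counts were tested in R 4.3.3 with edgeR 4.0.16: filterByExpr (minimum count 10, minimum total 15; 15422 genes kept), TMM scaling, robust quasi-likelihood F-test, two-sided, no covariate, Benjamini-Hochberg at 0.05 over all tested genes. The SE follows from the log2 fold change and its F statistic, intervals are 95%, and CPM uses TMM-scaled library sizes. No 2 libraries of a group agreed within sampling noise (chi-square 36.0 to 155 per gene), so none was treated as a repeat deposit. The procedure was checked on simulated counts. Alternatives were other scalings and filters, DESeq2 1.42.0, limma-voom (limma 3.58.1), no robust estimation, a replicate block and leaving out each library; a sex term and leaving out 3 libraries were added after the data were seen.

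Members and lists were chosen with earlier results of these data known. Values per library are given for Xaf1, members that passed or whose groups did not overlap, and the most abundant member of each role, and from every other list the most abundant gene, since none passed. Averages of other members, the H2-Q4 values by library, and Pitpnm3, Fbxo39, H2-Q1, H2-Q10, H2-T24, Slfn5 and Slfn8, were chosen for mention after their values were seen.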

Additional observations from a re-analysis of the deposited data

Results flagged for a closer look

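4 of 60 groups of 4 libraries, 2 groups for each of the 30 tested members, held a library set far from the other 3; chance flags about 1 in 20 groups. H2-K1 was at 53.5 CPM in Fra-2 1, against 20.9 to 22.9 CPM in the other libraries labelled Fra-2. Ifit1 was at 0.853 CPM in control 3, against 0.421 to 0.485 CPM in the other controls. Rtp4 was at 0.643 CPM in control 1, against 0.114 to 0.190 CPM in the other controls. Psmb10 was at 3.22 CPM in control 2, against 1.40 to 1.68 CPM in the other controls.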

How the results depend on the processing

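Xaf1 was higher and past the threshold under all 18 alternatives (log2 fold change 2.58 to 2.84, 2.68 to 2.84 when single libraries were left out, adjusted p up to 0.00277), and was the 1 member called higher in each. Slfn9 ranged from -1.12 to -0.88 and lost its call (-1.08, adjusted p = 0.251) without the 3 libraries high in H2-Q1, where 0 members were lower and 28 genes were called in all. With all 8 libraries edgeR called 157 genes, DESeq2 called 369, and leaving out single libraries gave 76 to 205; the counts without Fra-2 1 (76), Fra-2 3 (81), control 2 (76) and control 3 (90) moved by over 1.5 times. None of the 28 other members passed under any alternative that gave it an adjusted p, and 12 of them changed sign under some. Without the 3 libraries, the log2 fold change was 0.19 for Stat2, -0.037 for Irf1 and 0.26 for Gbp3. It was -0.0034 for Rtp4 with total-count scaling, and 0.0066 for Gbp3 and -0.026 for Psmb9 with limma-voom. With single libraries left out it ran from -0.31 to 0.027 for Stat2, -0.060 to 0.33 for Irf9, -0.031 to 0.61 for Ifit1, -0.22 to 0.049 for Oasl2, -0.22 to 0.85 for Rtp4, -0.53 to 0.68 for Mx2, -0.10 to 0.20 for Gbp3, -0.62 to 0.087 for H2-K1, -0.73 to 0.060 for H2-Q4, -0.15 to 0.12 for Tap1 and -0.48 to 1.03 for Psmb9. The cause of these changes was not tested. With the replicate number as a block, Gbp3 was at 0.010, Xaf1 at 2.73 and Slfn9 at -1.06, and 190 genes were called; same-numbered libraries had deviations correlated at 0.0018 to 0.31 and 2 of the 4 libraries labelled Fra-2 correlated best with their own number. Ifit1, Bst2, Rtp4, Psmb9 and Mx2 gave no value under the stricter filter, nor Mx2 without the 3 libraries, where the class I heavy chains are not given. DESeq2 gave no adjusted p for Ifit1, Rtp4, Mx2 and Psmb9.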

Other observations

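Among 54 tested interferon-induced genes outside the 37 members, 5 had an unadjusted p under 0.05, against 8.71% of all tested genes, and 0 passed by edgeR. Of the 54, 31 had a positive and 23 a negative log2 fold change, from -0.82 to 0.86. The 5 were named after their values were seen. Isg20, an exonuclease that degrades viral RNA, averaged 6.86 ± 1.46 CPM in the libraries labelled Fra-2 and 4.16 ± 1.48 CPM in the controls (edgeR adjusted p = 0.410). Ifitm1 averaged 5.57 ± 0.553 and 3.34 ± 1.96 CPM, and the secreted glycoprotein Lgals3bp 46.0 ± 12.4 and 35.3 ± 3.94 CPM, in the same order (edgeR adjusted p = 0.521 for both). Parp14, an ADP-ribosyltransferase, averaged 6.59 ± 0.968 CPM in the libraries labelled Fra-2 and 4.72 ± 0.624 CPM in the controls, and its groups did not overlap (edgeR adjusted p = 0.478). Cd274, which encodes the checkpoint ligand PD-L1, ran the other way, with 1.25 ± 0.216 CPM in the libraries labelled Fra-2 and 2.18 ± 0.876 CPM in the controls (edgeR adjusted p = 0.557).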
